A study of Rattus norvegicus with 2 samples.

Results

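The genes described here make up the DNA replication and nucleotide synthesis machinery. They are 58 genes listed by symbol for their known roles, by a rule that uses no measured value, although the list was drawn up with earlier results of these data known. Of these, 57 had a probe set annotated with exactly 1 gene symbol, of 22093 such genes in all. The remaining one, Dut (deoxyuridine triphosphatase), had only a probe set shared with Dut-ps and is left out. RNA came from NRK cells, keratinocytes of newborn rat epidermis, which is the outer layer of skin. Cells of both arrays were kept in medium with 10% serum and hydrocortisone, renewed every 24 h. One array holds cells cultured to day 5 with 5 µM all-trans retinoic acid (RA), the vitamin A derivative that acts through nuclear receptors, and 1 array holds cells cultured to day 5 without it. The title of the array without RA names no treatment, and the design names vehicle as the only other arm. With 1 array per group there is no replicate, so no difference has an error or a test, and whether an array holds 1 culture or a pool is not stated.

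Before S phase, origins of replication are licensed when the origin recognition complex, Cdc6 and Cdt1 load the ring-shaped MCM helicase onto DNA. Cyclin-dependent kinases then fire the origins, polymerases and the sliding clamp copy the strands, and deoxynucleotide enzymes supply the building blocks. Most of these genes are transcribed late in G1 under the E2F transcription factors, and in epidermis they are typically expressed in cycling basal cells and low in cells that have begun to differentiate.

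The promoters of the MCM ring genes and of thymidine kinase 1 are shown because 5 of them carry E2F-type words, and because Mcm5, Tk1 and Mcm3 had the largest differences below. Windows run from 250 bases before to 50 bases after the RefSeq gene start on build GRCr8, printed 5′ to 3′ on the gene's strand, and capitals mark each match to TTTGGCGC, TTTGCCGC, TTTCGCGC or TTTCCCGC on either strand. Mcm5 lies on the plus strand at chr19:13488563-13488862, Mcm3 on the minus strand at chr9:30733697-30733996, and Mcm6 on the minus strand at chr13:42404303-42404602. Mcm2 lies on the minus strand at chr4:122918045-122918344, Mcm7 on the minus strand at chr12:22163129-22163428, and Tk1 on the minus strand at chr10:103544728-103545027. No window was found for Mcm4.
Mcm5: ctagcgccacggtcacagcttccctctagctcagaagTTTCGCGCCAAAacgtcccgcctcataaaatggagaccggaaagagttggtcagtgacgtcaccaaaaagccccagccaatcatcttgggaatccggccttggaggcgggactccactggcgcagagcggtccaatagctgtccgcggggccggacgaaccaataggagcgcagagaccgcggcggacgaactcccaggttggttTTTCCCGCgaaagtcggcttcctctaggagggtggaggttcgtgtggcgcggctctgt
Mcm3: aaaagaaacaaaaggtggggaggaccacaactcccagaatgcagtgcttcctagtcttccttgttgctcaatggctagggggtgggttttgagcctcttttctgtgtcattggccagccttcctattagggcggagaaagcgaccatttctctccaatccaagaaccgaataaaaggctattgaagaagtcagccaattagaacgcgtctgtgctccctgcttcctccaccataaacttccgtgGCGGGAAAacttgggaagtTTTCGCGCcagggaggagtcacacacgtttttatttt
Mcm6: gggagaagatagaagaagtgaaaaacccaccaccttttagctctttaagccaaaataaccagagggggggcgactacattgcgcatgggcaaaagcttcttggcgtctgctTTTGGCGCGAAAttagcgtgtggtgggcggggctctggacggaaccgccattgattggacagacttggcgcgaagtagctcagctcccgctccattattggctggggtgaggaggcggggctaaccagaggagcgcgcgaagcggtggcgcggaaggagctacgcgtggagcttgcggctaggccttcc
Mcm2: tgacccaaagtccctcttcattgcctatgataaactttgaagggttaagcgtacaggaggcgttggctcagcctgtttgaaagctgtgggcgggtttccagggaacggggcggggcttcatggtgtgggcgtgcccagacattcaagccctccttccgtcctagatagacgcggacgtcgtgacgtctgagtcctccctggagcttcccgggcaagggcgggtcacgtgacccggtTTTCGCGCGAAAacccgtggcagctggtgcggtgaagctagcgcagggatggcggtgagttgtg
Mcm7: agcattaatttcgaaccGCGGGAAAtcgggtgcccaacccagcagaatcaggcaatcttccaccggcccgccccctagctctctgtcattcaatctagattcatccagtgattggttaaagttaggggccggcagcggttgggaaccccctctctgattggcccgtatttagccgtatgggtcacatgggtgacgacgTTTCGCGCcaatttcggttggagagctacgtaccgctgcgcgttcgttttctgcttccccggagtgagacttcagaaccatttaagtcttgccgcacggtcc
Tk1: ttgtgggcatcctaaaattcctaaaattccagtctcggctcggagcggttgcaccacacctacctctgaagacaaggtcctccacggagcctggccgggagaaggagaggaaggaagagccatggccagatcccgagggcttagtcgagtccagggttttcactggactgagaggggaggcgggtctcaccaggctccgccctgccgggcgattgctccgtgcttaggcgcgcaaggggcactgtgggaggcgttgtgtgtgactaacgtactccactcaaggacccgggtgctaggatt
Mcm5, Mcm6 and Mcm2 each hold an overlapping pair of words on opposite strands. In Mcm3 a word spans the start itself, and the Tk1 window holds none.

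With RA, 9 of the 57 genes (15.8%) were at least 2-fold higher and 0 were at least 2-fold lower. Among the 14274 genes that passed a floor on low signal, the shares were 7.88% higher and 5.63% lower. The floor is a log2 signal of 3.81, the median of all values, reached on either array, and all 57 genes reached it. The 9 were the helicase genes Mcm5, Mcm3 and Mcm6, the loading factor Cdc6, the ligase Lig1, the nucleotide enzymes Tk1 and Rrm2, the methylation cofactor Uhrf1 and the checkpoint kinase Chek1. The median difference of the 57 genes was 0.25 log2 units, beside -0.026 over all genes above the floor. Of the 57, 42 lay above 0 and 15 below it, while of the 14274 genes 6622 lay above 0 and 7583 below it. Differences are given throughout as signal with RA minus signal without RA, in log2 units as deposited. More cycling cells and more RNA per cycling cell cannot be told apart in such bulk RNA.

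**Figure D1:**
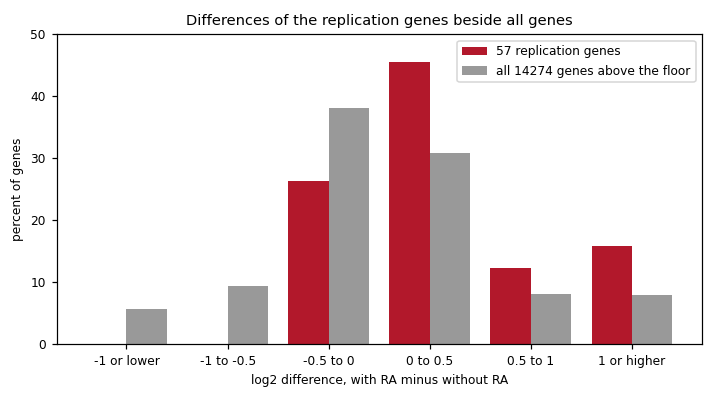
Percent of genes (y axis) by log2 difference, with RA minus without RA (x axis), for the 57 replication genes (red) and all 14274 genes above the floor (grey). The bin of 1 or higher holds 15.8% of the replication genes and 7.88% of all genes, and the 2 lowest bins hold none of the replication genes.

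The spread of control probe sets limits how single genes can be read. For 399 probe sets named as positive controls, the central 95% of differences ran from -1.72 to 2.14, and for 1153 named as negative controls it ran from -2.17 to 2.01. Of the positive controls 12.5% were past 2-fold on the higher side and 15.3% on the lower, and of the negative controls 11.9% and 15.7%. Among all genes above the floor the shares were 7.88% and 5.63%, so a larger part of the controls than of the genes passed 2-fold. Of the 57 genes, only Mcm5, Tk1 and Mcm3 lay above both ranges, and 0 lay below them. Among all genes above the floor, 2.46% had a larger difference than Mcm3. For 92 spike sequences the range was narrower, from -0.43 to 0.25, and 28 of the 57 genes lay above it. The 75th percentile of all genes above the floor was 0.26, so many genes outside the 57 lay above this range too. Median spike signals were 3.29 with RA and 3.28 without RA, under the floor of 3.81, so the range describes low signals only. The negative controls had medians of 4.47 with RA and 4.57 without RA, and Orc1, Pole2 and E2f1 were under these medians on both arrays. Both arrays end at 19.93, the highest deposited value, and no replication gene came near it.

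The cells carried keratinocyte genes on both arrays, but most were lower with RA. Of 15 measured keratinocyte markers 11 were lower by 2-fold or more and 0 were higher. Their median signal was 9.93 with RA and 16.11 without RA. The basal keratin gene Krt15 was at 19.65 with RA and 19.60 without RA, both near the highest value, 19.93. Krt14 was at 12.25 with RA and at that highest value without RA. The largest marker differences were those of Krt1, with 4.78 with RA and 18.98 without RA, and Krt10, with 5.94 and 17.59. Some markers of other skin cells were low on both arrays and others were not. Ptprc of immune cells was at 3.42 with RA and 3.53 without RA, and Col1a1 of fibroblasts at 3.92 and 3.97. Pecam1 of endothelium was at 3.42 and 3.47, and Sox10 of melanocytes at 3.20 and 3.18. Above the floor were 5 of 10 fibroblast, 3 of 8 melanocyte, 3 of 8 endothelial and 4 of 10 immune markers. Past 2-fold, Cd68 (immune), Fbln1 (fibroblast) and Eng (endothelial) were higher by 5.89, 2.90 and 2.52, while Col3a1 (fibroblast) and Tek (endothelial) differed by -2.13 and -1.33. The whole fibroblast list spanned 3.06 to 8.63 with RA and 3.12 to 7.03 without RA, and the immune list 3.12 to 11.31 with RA and 3.14 to 6.40 without RA. The endothelial list spanned 3.31 to 6.58 with RA and 3.32 to 7.72 without RA. Melanocyte markers spanned 3.04 to 5.14 with RA and 3.18 to 6.08 without RA. The part that these marker differences have in the replication gene differences was not tested.

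Licensing factors were uneven. Cdc6, the ATPase that loads the helicase at origins, had 6.53 with RA and 4.93 without RA, higher by 1.60. Its partner Cdt1 had 5.25 with RA and 4.77 without RA, higher by 0.48. Thus 1 loader passed 2-fold and the other did not. Both differences lay within the ranges of the positive and negative controls, which limits this contrast. The Cdt1 signal without RA was also near the negative control median of 4.57. Gmnn (geminin), which blocks Cdt1 outside G1, had 6.49 with RA and 6.39 without RA. The origin recognition subunits Orc1, Orc2 and Orc6 differed by 0.06, 0.23 and 0.08, and Orc1 signals were 3.87 with RA and 3.81 without RA, close to the floor. All 6 licensing genes lay above 0, with a median of 0.16.

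The MCM helicase ring held the largest difference of all 57 genes and the widest spread within a complex. Mcm5 had 11.79 with RA and 7.84 without RA, a difference of 3.95, and 100 of the 14274 genes above the floor had a larger one. Mcm3 had 8.20 with RA and 5.99 without RA, higher by 2.21. Mcm6 had 7.01 with RA and 5.85 without RA, higher by 1.15. These 3 subunits passed 2-fold and the other 3 did not, although all 6 proteins sit in 1 ring. Only Mcm5 and Mcm3 lay outside the ranges of the positive and negative controls. With 1 array per group, these arrays cannot show whether Mcm6 differed from the other 3. Mcm2 had 7.15 with RA and 6.46 without RA, and Mcm4 had 8.44 with RA and 8.11 without RA. Mcm7 was the only ring subunit on the other side of 0, with 8.95 with RA and 9.16 without RA. The group median was 0.92, and every member was read from a single probe set.

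**Figure D2:**
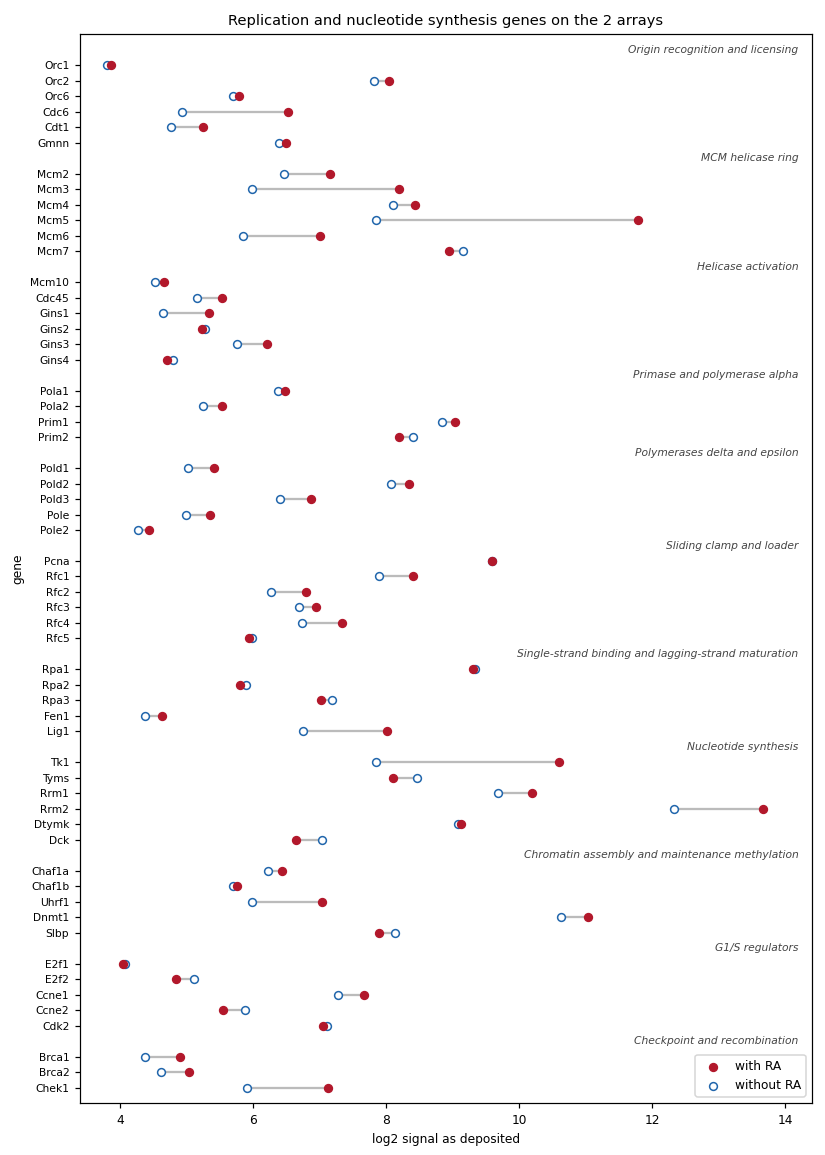
Deposited log2 signal (x axis) of each of the 57 genes (y axis, grouped by role) with RA (filled red) and without RA (open blue), joined by a line. Mcm5, Tk1 and Mcm3 show the longest lines, and most others differ little. Signals of different genes come from different probes and are not comparable with each other.

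The factors that turn the loaded ring into an active helicase showed small differences. None of the 6 passed 2-fold, and the group median was 0.26. Gins1, a subunit of the GINS tetramer, was the furthest from 0, with 5.34 with RA and 4.65 without RA. Gins3 had 6.21 with RA and 5.77 without RA, while Gins2 (5.23 and 5.28) and Gins4 (4.71 and 4.79) were nearly equal. All 4 GINS differences lay within the ranges of the positive and negative controls, so these arrays cannot show whether the subunits of this complex differed from each other. Cdc45, the third part of the active helicase, had 5.54 with RA and 5.16 without RA, and Mcm10, which helps the helicase to start, had 4.66 with RA and 4.53 without RA.

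Polymerase genes lay slightly above 0 and none passed 2-fold. All 5 genes of polymerases delta and epsilon, which copy the bulk of both strands, were above 0, with a median of 0.36 and a range from 0.17 to 0.48. The catalytic subunits Pold1 and Pole had 5.41 and 5.35 with RA and 5.02 and 4.99 without RA. The accessory subunits Pold2, Pold3 and Pole2 differed by 0.27, 0.48 and 0.17. In the priming complex, the polymerase alpha genes Pola1 and Pola2 differed by 0.10 and 0.28. Of the primase pair, Prim1, the catalytic subunit, had 9.03 with RA and 8.85 without RA, and Prim2, the large subunit, had 8.19 with RA and 8.41 without RA.

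The sliding clamp gene was equal on both arrays while most of its loader genes lay above 0. Pcna, the clamp and a standard proliferation marker, had 9.60 on both arrays, a difference of 0.0036. The loader subunits Rfc4, Rfc2 and Rfc1 were higher by 0.59, 0.52 and 0.51, below 2-fold. Rfc3 differed by 0.25, and Rfc5 had 5.95 with RA and 5.98 without RA. Among the proteins that bind single strands, Rpa1, Rpa2 and Rpa3 differed by -0.025, -0.088 and -0.17, and the sign of Rpa1 turned under another scaling. Of the enzymes that finish Okazaki fragments, the ligase gene Lig1 had 8.01 with RA and 6.76 without RA, higher by 1.25. The flap nuclease gene Fen1, which acts just before it, had 4.63 with RA and 4.38 without RA and did not pass 2-fold. These Fen1 signals lay near the negative control medians of 4.47 and 4.57, which limits the contrast with Lig1.

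Nucleotide enzyme genes lay on both sides of 0, and none was at least 2-fold lower. Tk1, the cytosolic salvage kinase for thymidine, had 10.60 with RA and 7.85 without RA, higher by 2.75. Rrm2, the small subunit of ribonucleotide reductase, had 13.66 with RA and 12.33 without RA, higher by 1.33, and its large subunit Rrm1 had 10.20 with RA and 9.68 without RA. Tk1 and Rrm2 thus held the largest differences of this group, and of these only Tk1 lay above the ranges of the positive and negative controls. Tyms (thymidylate synthase), which makes thymidylate de novo, had 8.10 with RA and 8.47 without RA. Dck, the salvage kinase for deoxycytidine, had 6.65 with RA and 7.03 without RA, and its -0.38 was the lowest difference of the 57 genes. Dtymk, which phosphorylates thymidylate from either route, had 9.12 with RA and 9.07 without RA.

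Among genes that copy chromatin along with DNA, 1 of 5 passed 2-fold. Uhrf1, which brings the maintenance methyltransferase to newly copied DNA, had 7.03 with RA and 5.99 without RA, higher by 1.04. That methyltransferase gene, Dnmt1, had 11.04 with RA and 10.63 without RA. The subunits of chromatin assembly factor 1, Chaf1a and Chaf1b, differed by 0.21 and 0.05. Slbp, which binds the stem-loop of replication-dependent histone messages, had 7.90 with RA and 8.13 without RA.

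The regulators of S phase entry had a median of -0.051, which was 0.023 after the lowess trend over every probe set was taken off. Of the 5, 4 lay below 0, although E2f1 and Cdk2 changed sign under another scaling. E2f1 and E2f2, activating E2F factors, had 4.04 and 4.84 with RA and 4.07 and 5.11 without RA. E2f1 was thus near the level of negative controls on both arrays. Cyclin E genes differed in sign, with Ccne1 at 7.67 with RA and 7.28 without RA and Ccne2 at 5.55 with RA and 5.88 without RA. Their kinase gene Cdk2 had 7.06 with RA and 7.11 without RA. In the checkpoint group all 3 genes were above 0. Chek1, the kinase that restrains origin firing when forks stall, had 7.13 with RA and 5.90 without RA, higher by 1.23. The recombination genes Brca1 and Brca2 were higher by 0.52 and 0.42.

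Rescaling the arrays left these calls in place. Under each of 4 other scalings the 9 genes stayed at least 2-fold higher and 0 of the other members passed 2-fold in either direction. The sign turned under at least 1 scaling for 7 genes whose differences were at most 0.051 in size, namely Pcna, Cdk2, E2f1, Gins2, Rfc5, Rpa1 and Dtymk. Of all genes past 2-fold, 58.3% were higher with RA as deposited. That share was 69.3% when the trend with signal, fitted by lowess to every probe set, was taken off, which also moved the median of all genes above the floor to 0.075. Uhrf1 was the closest to the threshold, with 1.04 as deposited and 1.06 to 1.12 over the scalings, so every scaling raised it. Mcm5 ran from 3.97 to 4.16 over the scalings.

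The lists of pathway genes outside the 57 were unlike each other in how many genes passed 2-fold. Of 33 other replication factors, 2 passed 2-fold upwards and 0 downwards, and their median was 0.11. They were Top2a, the topoisomerase that untangles copied strands, with 9.77 with RA and 8.23 without RA, and Dbf4, the activating subunit of the Cdc7 kinase, with 8.55 with RA and 7.07 without RA. Cdc7 itself had 4.80 with RA and 4.68 without RA, near the negative control medians. The origin firing gene Ticrr and the fork protection gene Timeless differed by 0.72 and 0.66. Of 17 other chromatin genes 2 were higher and 0 lower, the lamin gene Lmnb1 by 1.10 and the remodeller gene Hells by 1.08, while Rbbp7 and Mms22l differed by 0.79 and 0.76. Of 34 other checkpoint and repair genes 4 were higher and 0 lower, namely the translesion polymerase gene Polk by 1.56, Parp1 by 1.45, the mismatch repair gene Msh6 by 1.28 and Bard1, the partner of Brca1, by 1.18. The shares higher, 6.06%, 11.8% and 11.8%, lie near the 7.88% of all genes.

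**Figure D3:**
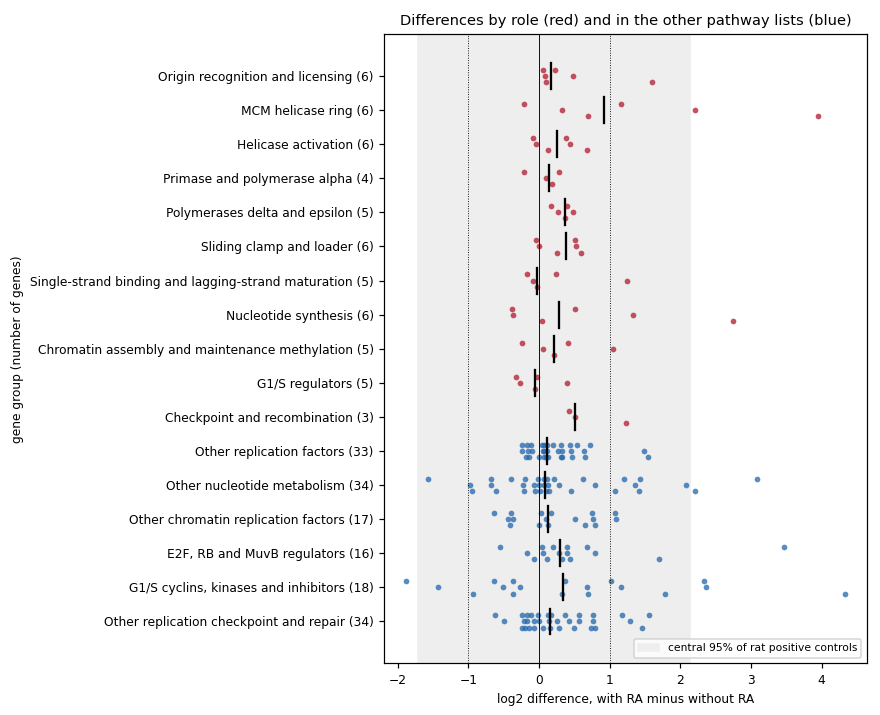
Log2 difference, with RA minus without RA (x axis), of each gene (points) by role for the 57 replication genes (red) and in the 6 other pathway lists (blue), with group medians (black bars) and the 2-fold lines (dotted). The grey band is the central 95% of positive control probe sets, -1.72 to 2.14, and of the 57 genes Mcm3, Tk1 and Mcm5 lie to its right. From the other lists, Ccnd1, Mybl2, Cda, Cdk6, Wee1 and Mthfd2 lie there too.

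Other nucleotide metabolism genes differed more widely than replication factors. Of 34 genes, 8 were past 2-fold on the higher side and 1 on the lower, around a median of 0.085. These are 23.5% and 2.94% of the list, beside 7.88% and 5.63% of all genes above the floor. Cda (cytidine deaminase) had 8.47 with RA and 5.39 without RA, and Dctd, which deaminates deoxycytidylate towards thymidylate synthesis, had 10.05 with RA and 7.97 without RA. Mthfd2, a mitochondrial folate enzyme, had 7.94 with RA and 5.73 without RA. Deaminases and a folate enzyme thus held the largest values in the list. The 1 lower gene was Nme1, a nucleoside diphosphate kinase, with 6.84 with RA and 8.41 without RA. Its paralog Nme2 had 9.70 with RA and 9.90 without RA, and whether the 2 genes share signal was not tested.

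Upstream regulators outside the 57 were uneven as well. In the list of E2F, RB and MuvB genes, 2 of 16 (12.5%) passed 2-fold, both higher with RA, and the median was 0.30. Mybl2, a MuvB partner that is itself an E2F target, had 9.68 with RA and 6.22 without RA, and the MuvB subunit gene Lin9 had 8.21 with RA and 6.52 without RA. The repressor genes E2f6, E2f7 and E2f8 differed by 0.80, 0.39 and 0.39, E2f3 by 0.04 and the E2F partner Tfdp1 by -0.55. The pocket protein genes Rb1 and Rbl1 differed by 0.06 and 0.67, and Foxm1, at 4.26 with RA and 4.15 without RA, lay near the negative controls. Of 18 genes of cyclins, kinases and inhibitors that act from G1 into S phase, 6 (33.3%) were higher and 2 (11.1%) lower, beside 7.88% and 5.63% of all genes above the floor, and the median was 0.35. Ccnd1 (cyclin D1) and its kinase partner Cdk6 were higher by 4.33 and 2.37, Wee1, a kinase that inhibits Cdk1, by 2.34, and Ccnd2 differed by -1.88. Of the inhibitor genes, Cdkn1a and Cdkn1c were higher by 1.17 and 1.78 and Cdkn2b differed by -1.43, while Cdkn1b differed by -0.36, Ccna2 by 0.70 and Myc by -0.52.

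E2F-type words were more common in the promoters of the replication genes than in those of all genes with a window. Of 48 measured members with a RefSeq window, 21 (43.8%) held 1 of the 4 words given above, against 2.37% of the 27457 genes with a window and 3.91% of the 10728 of these that were above the floor on the arrays. Of the 7 members at least 2-fold higher that had a window, 6 held a word, Tk1 being the one without, and so did 15 of the 41 other members. The median difference was 0.44 for the 21 members with a word and 0.23 for the members without. Of 31 matches in the members, 21 began within 50 bases of the start, namely 5 of 11 in the members at least 2-fold higher and 16 of 20 in the others. CCAAT, read on both strands, was in 28 of the 48 members (58.3%), in 39.6% of all genes with a window and in 39.5% of those above the floor. The words TTTGAA and TTCGAA, which occur in promoters of mitotic genes, were in 9 members (18.8%), in 21.0% of all genes with a window and in 16.3% of those above the floor, so that the members lay below the first share and above the second. A single E2F-type match, in Mcm7, overlapped either of these. Orc1, Cdc6, Mcm4, Gins4, Rpa3, Rrm2, E2f1, E2f2 and Ccne2 had no window in the table. These matches describe letters and not binding, and their part in the differences was not tested.

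**Figure D4:**
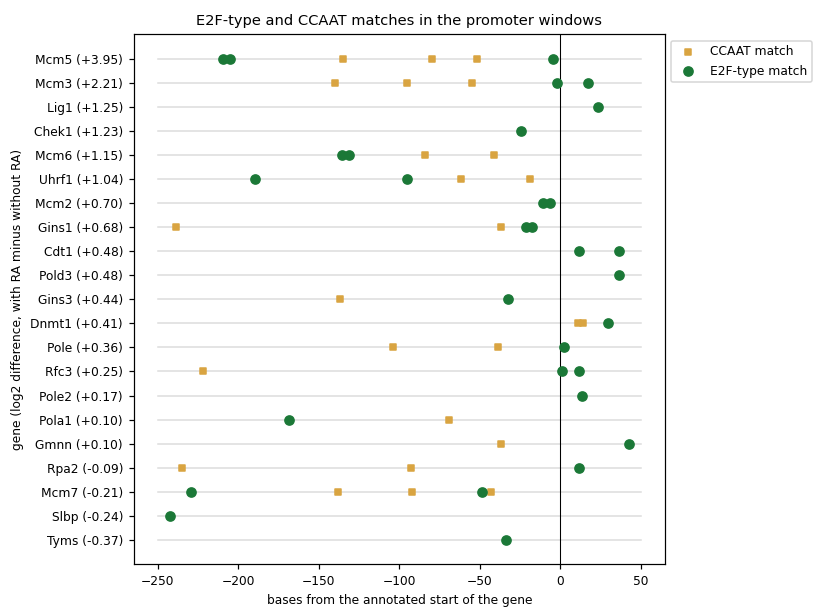
Positions of E2F-type matches (green circles) and CCAAT matches (ochre squares) in bases from the annotated start (x axis) for the 21 members with an E2F-type match (y axis), ordered by log2 difference, with RA minus without RA, from Mcm5 (3.95) to Tyms (-0.37). For Uhrf1, which has several annotated starts, the window that holds the matches is drawn. Within 50 bases of the start lie 5 of 11 E2F-type matches in the members at least 2-fold higher and 16 of 20 in the others.

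Some replication genes share a promoter region with a neighbour read in the opposite direction. By the RefSeq annotation, 10 members had such a neighbour starting within 1000 bases, and 9 of these neighbours were above the floor. Of the 9, 1 was at least 2-fold higher and 1 lower, beside 7.88% and 5.63% of all genes above the floor. Tk1 and its neighbour Afmid, a kynurenine pathway enzyme gene, were both at least 2-fold higher, Afmid having 5.57 with RA and 4.31 without RA. The Afmid signal without RA was under the negative control median of 4.57. Lig1 was higher by 1.25 while its neighbour Zswim9 had 4.74 with RA and 4.77 without RA, near the negative control medians. Ufd1, the neighbour of Cdc45, was the 1 lower neighbour, with 9.74 with RA and 11.03 without RA. Ap4m1, which neighbours Mcm7, had 10.15 with RA and 9.31 without RA, the opposite direction to Mcm7. The median difference of the 9 neighbours was -0.032.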

How the data were processed

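The values deposited by the authors are log2 signals of 70580 probe sets on 2 arrays. The submitters' processing notes name RMA and the Transcriptome Analysis Console, without versions or order. No source states the log base, which was inferred from the values, and 670 values with RA and 963 without RA exceed 16, the log2 limit of a 16-bit scanner, so a 2-fold difference is 2-fold on the deposited scale only. Depth does not apply, and the array number limits precision. Genes were named from platform annotation updated by Entrez ID to RefSeq (assembly GRCr8), which matched 22077 of 23446 probe sets with 1 symbol. A gene's probe set is the one with the highest mean of both arrays, and the difference is RA minus without RA (Python 3.11.15, numpy 2.4.6, pandas 2.3.3, statsmodels 0.14.6, matplotlib 3.10.9). No test was possible. Members, lists and named genes were chosen with earlier results of these data known. Outside the members, the text names the 4 largest absolute differences of each list plus a fixed set of regulators. The head-to-head neighbours named, Nme2, Cdkn1c and Cdkn2b were chosen after their values were seen, and so were the motifs and promoters. Counting and motif search were tested on simulated data. Alternatives were scaling, probe set choice, floor and fold threshold.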

Additional observations from a re-analysis of the deposited data

How the results depend on the processing

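Of 10 alternatives tried, 1 moved the count of replication genes past the threshold by over 1.5 times. At 4-fold it was 3 (Mcm5, Tk1 and Mcm3), beside 3.05% of all genes, and at 1.5-fold it was 12, beside 13.9% of all genes. No alternative gave a lower gene among the 57, and their median ran from 0.25 to 0.33. The median of the checkpoint group was 1.23 with the floor at the 75th percentile (5.45), because only Chek1 stayed above it. Each member has 1 probe set, so the mean of probe sets left the members as they were.

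Counts in the other lists moved by over 1.5 times, or away from or to 0, only with the fold threshold. One scaling, lowess over all probe sets, gave 10 higher nucleotide metabolism genes and 3 higher chromatin genes, and the mean of probe sets gave 5 higher cyclins and inhibitors. At 1.5-fold, higher genes numbered 5 for replication factors, 6 for chromatin, 4 for E2F and MuvB and 8 for repair genes, and lower genes 6 for nucleotide metabolism, 1 for chromatin, 4 for cyclins and inhibitors and 1 for repair. At 4-fold, higher genes numbered 0 for replication factors, chromatin and repair, 1 for E2F and MuvB, and 3 each for nucleotide metabolism and for cyclins and inhibitors, and lower genes 0 for nucleotide metabolism and for cyclins and inhibitors. No paired analysis was possible because there is a single array with RA and a single one without, so leaving out a replicate was not possible either. Signals of Orc1, Pole2 and E2f1 lay under the negative control medians, which limits what their differences show.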

Other observations

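Genes outside the 57 with an E2F-type word in their RefSeq promoter window were close to the background on the higher side and below it on the lower. Of 399 such genes above the floor, 33 (8.27%) passed 2-fold on the higher side with RA and 14 (3.51%) on the lower, beside 7.88% and 5.63% of all genes. Their median difference was 0.014, against -0.022 for other genes with a window but no such word. The genes named here were chosen after their values were seen. Among those higher with RA, the largest difference was that of the imprinted gene Peg10, with 15.25 with RA and 6.41 without RA, followed by the membrane mucin gene Muc1 with 7.79 with RA and 4.61 without RA. The tight junction gene Tjp3 had 8.20 with RA and 5.74 without RA, and the nuclear pore gene Nup210 had 8.59 with RA and 6.21 without RA. On the other side, Ide (insulin-degrading enzyme) had 10.97 with RA and 15.55 without RA, and Mreg (melanoregulin) had 7.58 with RA and 10.61 without RA.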
